A study of Mus musculus with 3 samples.

Results

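Barcodes of lymph node stroma were examined in which Tnfsf11 RNA was found while Cr2 and Madcam1 RNA was not. Tnfsf11 encodes the TNF family cytokine RANKL and lies on the minus strand at chr14:78277445-78308043 (GRCm38, whole gene). The 3 single-cell libraries held 5486 barcodes. Of these, 2243 were retained, with at least 200 genes, at most 10% of UMIs from mitochondrial genes and no UMI of 13 genes of contaminating cells. A UMI (unique molecular identifier) counts 1 captured RNA molecule. Barcodes with at least 1 Tnfsf11 UMI and 0 UMIs of Cr2 and Madcam1 numbered 593, or 26.4% of those retained, and are called the Tnfsf11 gate here. Such barcodes are labelled interfollicular reticular cells (IFRCs), a label that was checked against its markers below. As Tnfsf11, Cr2 and Madcam1 chose the barcodes, their levels are descriptions and were not tested.

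All cells came from C57BL/6 mice of the genotype CXCL13-TdTomato+, which carry a Cxcl13-Cre/tdTomato transgene that marks cells with activity of the chemokine gene Cxcl13 by the red protein TdTomato. Live cells with PDPN and TdTomato but without CD31 and CD45 were sorted from lymph nodes draining an injection of antigen in alum, given after antibody so that antigen immune complexes (antigen-ICs) formed. In 2 libraries (2-IC replicates 1 and 2) the mice had received 2 antigen-ICs, the first 7 days and the second 24 h before analysis, and in 1 library (1-IC) they had received 1 antigen-IC 24 h before. Every group was therefore immunized, lymph nodes of several mice were pooled in each condition, and no age is given. Whether TdTomato reports present or past activity of Cxcl13 in these cells was not tested. The short descriptions of the 2-IC libraries name different times (24 h and 7 days), and these libraries were grouped by their shared title. The libraries held 20607903, 12788101 and 3766526 UMIs in 3790, 1029 and 667 barcodes (2-IC replicate 1, 2-IC replicate 2 and 1-IC, the order used for all values below).

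RANKL is a membrane and secreted ligand that acts through its receptor RANK, while osteoprotegerin, encoded by Tnfrsf11b, is its soluble decoy. In lymph nodes, stromal RANKL is best known from marginal reticular cells below the subcapsular sinus, which also carry MAdCAM-1, and from reticular cells between the follicles. Ch25h, a marker of the latter, makes 25-hydroxycholesterol, the precursor of the oxysterol that guides activated B cells through their receptor EBI2. CR2 is the complement receptor with which follicular dendritic cells (FDCs) hold immune complexes.

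The gate held 376 of 1526, 135 of 391 and 82 of 326 retained barcodes. These are 24.6% (exact Clopper-Pearson 95% interval 22.5 to 26.9), 34.5% (29.8 to 39.5) and 25.2% (20.5 to 30.2), and the intervals cover counting error only. The share was highest in 2-IC replicate 2, which was also the deepest library, with a median of 14732 UMIs per retained barcode against 4700.5 and 5979 in the others. When barcodes were thinned to 2000 UMIs before gating, the shares were 14.7% (12.8 to 16.7), 13.6% (10.2 to 17.7) and 15.5% (11.4 to 20.4), and all 3 intervals overlapped. Tnfsf11 was not spread evenly over all cells. In B cell barcodes, which should lack Tnfsf11, it was found in 4 of 206 (1.94%), 2 of 53 (3.77%) and 2 of 170 (1.18%), at median depths of 2980, 5840 and 3139.5 UMIs. After thinning to 2000 UMIs, it was found in 1.99%, 2.08% and 0% of B cell barcodes (0 of 158 in the last, which allows a share of up to 1.90% at 3 counts and has an exact upper limit of 2.31%) against 16.2%, 14.2% and 18.1% of all retained barcodes.

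Most of the gate rested on few molecules. Of the 593 barcodes, 286 had 1 Tnfsf11 UMI, 113 had 2 and 194 had 3 or more, with a maximum of 28, 29 and 17 UMIs in the 3 libraries. The 286 barcodes just inside the limit had a median of 6074.5 UMIs in all, and the 1552 retained barcodes with no Tnfsf11 UMI had 4706. Median UMIs per barcode were 6037.5, 16914 and 7199.5 in the gate and 4382, 13419.5 and 5319 in the other 1650 retained barcodes, so that the gate was the deeper set in each library. Summed per library, Tnfsf11 reached 353, 232 and 307 CPM (UMIs of a gene divided by all UMIs of the sum, scaled to a sum of 1000000) in the gate. It reached 451, 397 and 417 CPM in the Madcam1 gate (83 retained barcodes with Madcam1 and no Cr2, 52 of them with Tnfsf11) and 63.9, 48.0 and 65.4 CPM in the Cr2 gate (230 retained barcodes with Cr2, 46 of them with Tnfsf11). The level was lower in the Tnfsf11 gate than in the Madcam1 gate in all 3 libraries, although every member of the former was chosen for the gene.

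**Figure D1:**
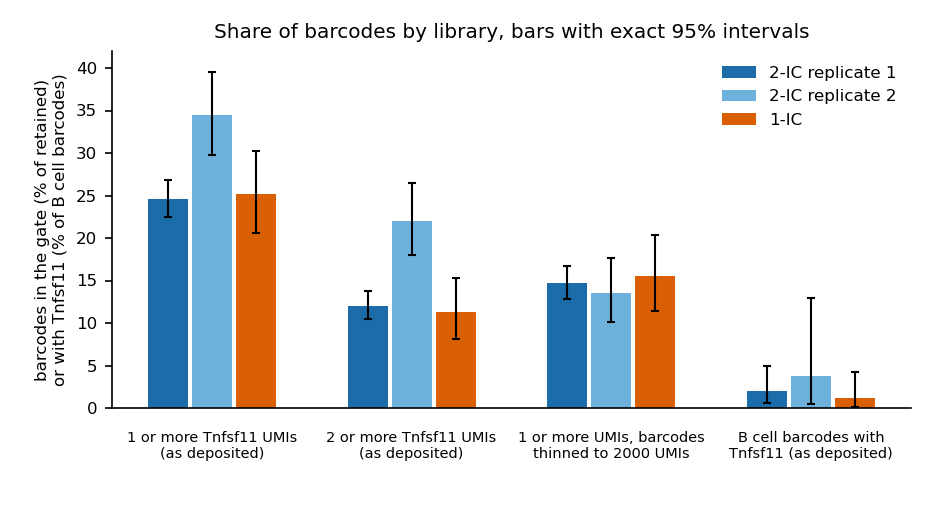
Share of barcodes per library (y axis, percent) for the gate as deposited, with at least 2 Tnfsf11 UMIs, and after thinning to 2000 UMIs, beside the share of B cell barcodes with Tnfsf11; bars are shares and the thin lines exact 95% intervals. 2-IC replicate 2 stands above the others as deposited (34.5%) and not after thinning (13.6%).

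Of the 5 markers of the label, Tnfsf11 chose the barcodes and the other 4 were tested. Against all other retained barcodes, 0 were called higher and 1 lower, beside 1.50% and 3.39% of all genes tested. Ch25h stood at 53.9, 35.8 and 26.5 CPM in the gate and 26.5, 29.5 and 23.9 CPM in the other retained barcodes. It was higher in the gate in 3 of 3 libraries, but the log2 fold change did not pass the test (edgeR quasi-likelihood test on sums with the library as a block, 0.59 ± 0.17 (SE), Benjamini-Hochberg adjusted p = 0.0708). The log2 value was 0.19, adjusted p = 0.827 without 2-IC replicate 1, 0.80, adjusted p = 0.0567 without 2-IC replicate 2, 0.66, adjusted p = 0.57 after thinning barcodes to 2000 UMIs before gating, and 0.67, adjusted p = 0.000762 without 1-IC, where it was called higher. Cxcl13 was at 10181, 4769 and 12581 CPM in the gate and 9162, 5541 and 19866 CPM in the others, higher in 1 library and lower in 2 (log2 fold change -0.28 ± 0.10, adjusted p = 0.167, and 0.18, adjusted p = 0.57 after thinning and gating). It was called lower without 2-IC replicate 1 (-0.49, adjusted p = 0.0182) and was at -0.072, adjusted p = 0.699 without 1-IC. Acta2, the smooth muscle actin gene, was at 477, 128 and 608 CPM against 280.4, 178 and 278 CPM, higher in the gate of 2-IC replicate 1 and 1-IC but not of 2-IC replicate 2 (adjusted p = 0.288). It was called higher without 2-IC replicate 2 (log2 fold change 0.86, adjusted p = 0.00111) and after thinning barcodes to 2000 UMIs before gating (0.63, adjusted p = 0.02), and was at 0.27, adjusted p = 0.809 without 2-IC replicate 1 and 0.19, adjusted p = 0.328 without 1-IC. Tnfsf13b, which encodes the B cell survival factor BAFF, went against the label. It was at 163, 168 and 129 CPM in the gate and 210.3, 223 and 166 CPM in the others, lower in 3 of 3 libraries (log2 fold change -0.43 ± 0.08, adjusted p = 0.00942). The call was lost after thinning and gating (-0.51, adjusted p = 0.263), without 2-IC replicate 2 (-0.42, adjusted p = 0.0865) and without 2-IC replicate 1 (-0.45, adjusted p = 0.136), each time at about the same log2 value, and without the filter on contaminant genes the log2 value was 0.082. Inmt, a marker of medullary reticular cells that encodes a methyltransferase, was at 561, 734 and 348 CPM in the gate and 455, 505 and 274 CPM in the others (0.36 ± 0.08, adjusted p = 0.0196), and this call was lost with a log2 value of -0.012, adjusted p = 0.997 after thinning and gating. Of 9 medullary markers tested, Inmt and Stc1 rose and 1 fell, beside 1.50% and 3.39% of all genes tested (list median -0.13). Stc1 is described below. The barcodes are therefore named by their gate and not by a cell type.

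The comparison with all other retained barcodes mixes several cell types, since that set holds every Cr2 and Madcam1 barcode. The gate was therefore also compared with the 1337 barcodes that had none of the 3 genes. The gate's sums enter both comparisons. Here Ch25h (log2 fold change 0.89 ± 0.19, adjusted p = 0.00761) and Cxcl13 (0.95 ± 0.09, adjusted p = 7.91e-06) rose and Tnfsf13b fell (-0.63 ± 0.08, adjusted p = 0.0002). Of the 9 medullary markers, 1 (Stc1) rose, 5 fell and Inmt was not called, beside 1.79% and 3.51% of all genes tested (list median -0.39). Cxcl13 was at 3851, 2398 and 7726 CPM in barcodes with none of the genes, below the gate of the same library each time. Within the gate, barcodes with at least 2 Tnfsf11 UMIs had 65.9, 48.7 and 37.9 CPM of Ch25h and 13009, 5112 and 16896 CPM of Cxcl13, and those with 1 UMI had 39.4, 13.1 and 15.4 and 6761, 4163 and 8387 CPM. Both genes were thus higher with more Tnfsf11 in each library, which was not tested. Tnfsf13b went the other way, with 127, 153 and 117 CPM at 2 UMIs or more and 208, 194 and 141 CPM at 1 UMI.

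**Figure D2:**
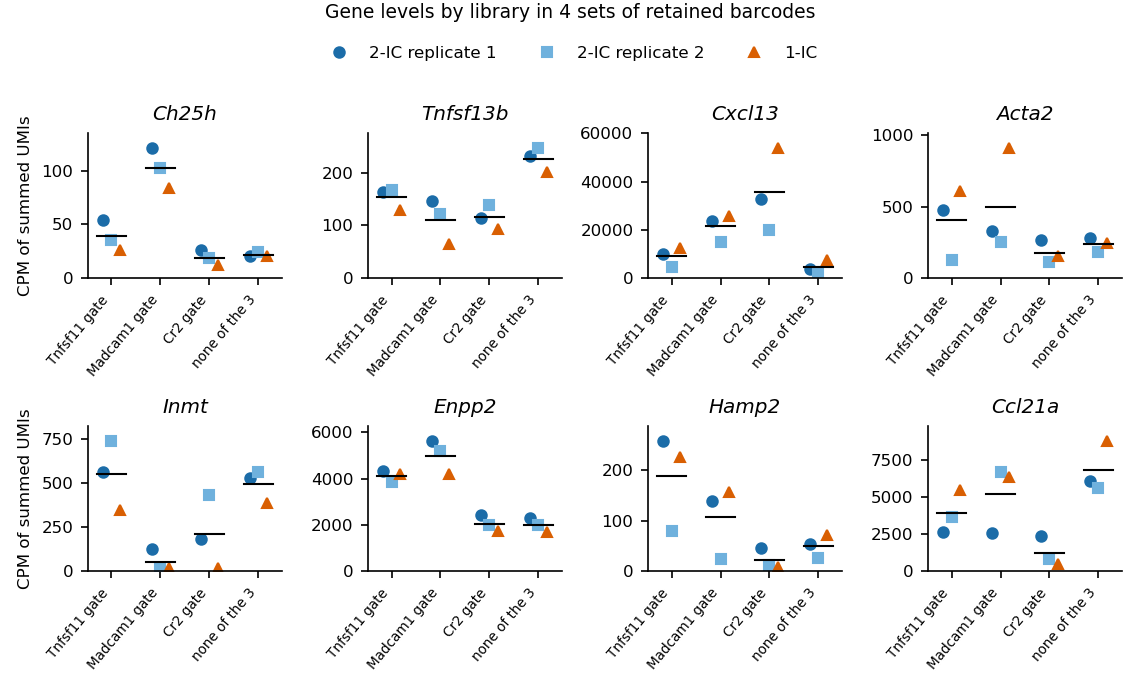
CPM of summed UMIs (y axes, from 0) for 8 genes in the Tnfsf11, Madcam1 and Cr2 gates and in retained barcodes with none of the 3 genes; each point is a library and each black line the mean of 3. Ch25h and Cxcl13 lie between the Madcam1 gate and the barcodes with none of the genes, and Enpp2 and Hamp2 are above those barcodes in each library.

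Against all other retained barcodes, 539 of 11019 genes passed the test (4.89%), 165 higher in the gate (1.50%) and 374 lower (3.39%). The 10 genes with the largest rise at 50 CPM or more, in the same direction in every library, were Hamp2, Prkg2, Sdpr, Timd4, Stc1, Tuba8, Ccl9, Rspo3, Ramp1 and Pltp. In summed counts, a higher level can come from more barcodes with the gene or from more RNA in each, and the 2 cannot be told apart. Hamp2, a gene of the hepcidin family of iron-regulating peptides with a close copy, Hamp, with which it may share reads (minus strand, chr7:30922372-30924681), was at 257, 79.4 and 228 CPM in the gate and 58.3, 23.9 and 63.7 CPM in the others (log2 fold change 1.92 ± 0.11, adjusted p = 5.33e-07). The gate was above the other barcodes of the same library by more than 3-fold each time, although 2-IC replicate 2 had lower values in both sets. Stc1, on the list of medullary reticular cell markers like Inmt, encodes the secreted glycoprotein stanniocalcin (plus strand, chr14:69029238-69041804), and was at 456, 478 and 295 CPM against 210.5, 223 and 125 CPM (1.09 ± 0.08, adjusted p = 4.88e-06). All 3 values of the gate were above all 3 of the others.

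Enpp2 encodes autotaxin, the secreted enzyme that makes lysophosphatidic acid, and is a marker of marginal reticular cells (minus strand, chr15:54838901-54952892). Of the genes named here as higher against all others it was the most abundant, at 4305, 3842 and 4181 CPM in the gate and 2485, 2236 and 1896 CPM in the others (0.86 ± 0.07, adjusted p = 1.51e-05), without overlap between the sets. Timd4, which encodes the phosphatidylserine receptor TIM-4, was at 189.6, 75.5 and 248 CPM against 84.7, 38.5 and 101 CPM (1.10 ± 0.10, adjusted p = 1.95e-05). Rspo3, which encodes the WNT enhancer R-spondin 3, was at 86.5, 139 and 161 CPM against 50.5, 58.2 and 66.6 CPM (1.02 ± 0.12, adjusted p = 0.000197). Pltp, a phospholipid transfer protein gene, was at 425, 324 and 466 CPM against 244, 158 and 170.2 CPM (1.01 ± 0.11, adjusted p = 0.0001). Prkg2 (a cGMP-dependent kinase), Ramp1 (a subunit of the CGRP receptor), Tuba8 (a tubulin) and Sdpr (a caveola protein) had log2 fold changes of 1.19, 1.02, 1.07 and 1.13. Against barcodes with none of the 3 genes, 578 of 10898 genes passed (5.30%), 195 of them higher (1.79%) and 383 lower (3.51%). There the log2 fold changes were 1.87 for Hamp2, 0.91 for Stc1 and 0.97 for Enpp2 (adjusted p = 2.91e-07, 1.12e-05 and 9.78e-07).

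Because the gate favours deep barcodes, these genes were also compared after thinning each barcode to 2000 UMIs and gating on the thinned counts. The gate then held 192, 47 and 42 barcodes. Barcodes that lost their Tnfsf11 UMIs joined the others, and those that lost Cr2 or Madcam1 UMIs could enter the gate. Lower depth and changed membership cannot be told apart in values after thinning and gating. Of the 165 higher genes, 141 could be tested, 130 had the same sign and 27 were called. Hamp2 (log2 fold change 1.62, adjusted p = 7.86e-06), Prkg2 (1.46, adjusted p = 0.000275), Ramp1 (1.19, adjusted p = 0.00293), Stc1 (0.90, adjusted p = 0.000379) and Enpp2 (0.92, adjusted p = 2.21e-07) were among those called. Timd4 (0.49, adjusted p = 0.436), Ccl9 (0.57, adjusted p = 0.387), Rspo3 (0.62, adjusted p = 0.241) and Pltp (0.54, adjusted p = 0.115) were not. Without 2-IC replicate 2, whose gate and other barcodes were rich in Thbs1 (162, 774 and 82.6 CPM in the gate) and Fst (29.3, 175 and 32.7 CPM), 327 genes were called, and without 2-IC replicate 1 and without 1-IC 239 and 814. Without the library as a block 32 genes were called, and without the filter on contaminant genes 2433.

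**Figure D3:**
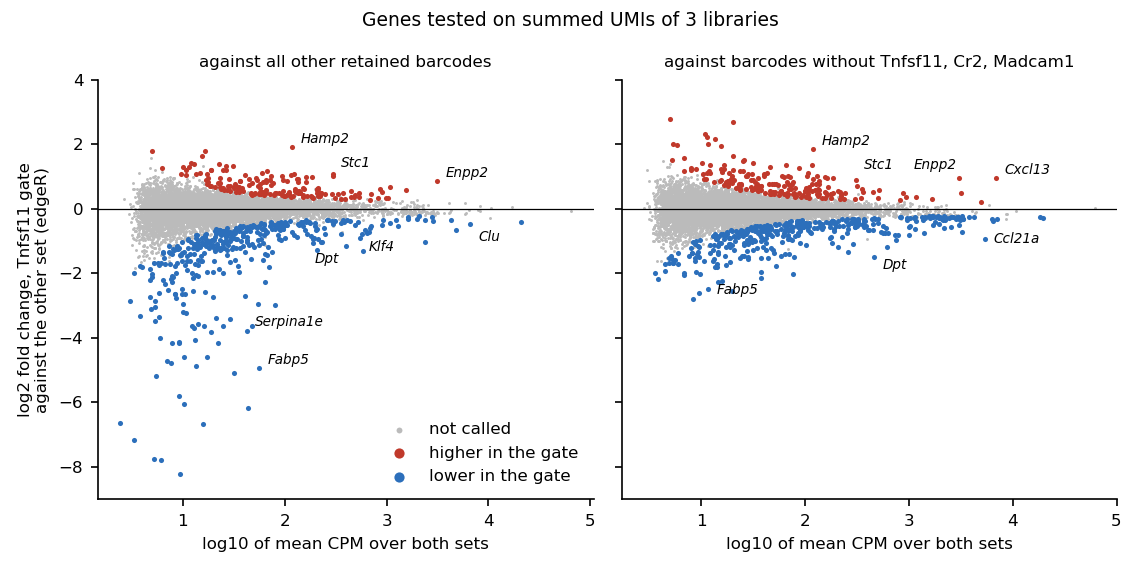
Log2 fold change of the Tnfsf11 gate (y axis) against the log10 of mean CPM (x axis) for each gene tested, against all other retained barcodes (left) and those without Tnfsf11, Cr2 and Madcam1 (right); red and blue mark adjusted p under 0.05. The strongly lower genes at left, such as Fabp5 and Serpina1e, include genes of the Cr2 gate. At right, where no Cr2 barcode enters, Fabp5 is at -2.50 in place of -4.92.

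Several genes of pericytes, the contractile cells around small vessels, rose in the gate. Of 11 listed pericyte genes 7 were tested and 4 rose, beside 1.50% of all genes tested, with a list median log2 fold change of 0.48 against 0.015 over all genes tested. Kcnj8 and Abcc9 encode the pore and the regulatory subunit of 1 ATP-sensitive potassium channel and are neighbours on chromosome 6. Kcnj8 was at 269, 205 and 329 CPM in the gate and 189, 143 and 142 CPM in the others (0.64 ± 0.12, adjusted p = 0.00571), and all gate values were above all others. Abcc9 was at 617, 662 and 421 CPM against 472, 541 and 223 CPM (0.44 ± 0.10, adjusted p = 0.0226), higher within each library though the ranges overlapped. Pdgfrb, the PDGF receptor gene of mural cells and fibroblasts (0.48 ± 0.09, adjusted p = 0.00726), and Cox4i2, a subunit of cytochrome c oxidase (1.20 ± 0.30, adjusted p = 0.0387), completed the 4 and were named after their values were seen. Rgs5, the most used pericyte marker, was at 542, 702 and 368 CPM against 588, 652 and 427 CPM (adjusted p = 0.599). Without the filter on contaminant genes its sign turned and it was called higher (log2 fold change 0.38, adjusted p = 0.00924). Most barcodes returned by dropping the filter join the others, and Dcn, Cxcl12, Mmp14 and Thbs1 turned to called higher as well. The turn is thus not particular to Rgs5. After thinning and gating, Kcnj8 and Cox4i2 were called (log2 fold change 0.70, adjusted p = 0.0368 and 2.40, adjusted p = 0.00639) and Abcc9 (0.46, adjusted p = 0.0614) and Pdgfrb (0.0098, adjusted p = 0.997) were not. The same 4 genes rose against barcodes with none of the 3 gate genes, where 1.79% of all genes rose (list median 0.35, all genes 0.0056).

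Of 17 contractile genes, 15 were tested, 3 rose and 1 fell, where 1.50% of all genes tested rose and 3.39% fell (list median 0.17). Mylk, the myosin light chain kinase gene, was at 598, 648 and 664 CPM in the gate and 386, 495 and 443 CPM in the others (0.49 ± 0.07, adjusted p = 0.00143), without overlap, and was also called after thinning and gating (0.62, adjusted p = 0.0022). Des, which encodes desmin, was at 1239, 1132 and 946 CPM against 1029, 877 and 663 CPM (0.33 ± 0.07, adjusted p = 0.0145). Its call was lost against barcodes with none of the 3 genes (adjusted p = 0.169) and after thinning and gating (0.14, adjusted p = 0.747). Synpo2 rose (0.45 ± 0.11, adjusted p = 0.0314) and Pdlim3 fell (-1.57 ± 0.16, adjusted p = 7.75e-05), and Myh11, smooth muscle myosin, rose against barcodes with none of the genes (0.78 ± 0.14, adjusted p = 0.00215), was not called against all others (adjusted p = 0.888), and was lower than in the Madcam1 gate (-1.20 ± 0.20, adjusted p = 0.000408) and the Cr2 gate (-1.48 ± 0.17, adjusted p = 4.19e-05). These last 3 genes were named after their values were seen.

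Among growth factors for leukocytes, 13 of 14 genes were tested, 3 rose and 1 fell, beside 1.50% and 3.39% of all genes tested (list median -0.05, all genes 0.015). Kitl, which encodes stem cell factor, was at 248, 249.8 and 269.6 CPM in the gate and 156, 185 and 144 CPM in the others (0.59 ± 0.10, adjusted p = 0.00218), with no overlap. Flt3l, the dendritic cell growth factor, was at 186, 154 and 198 CPM against 138, 118 and 119.5 CPM (0.44 ± 0.09, adjusted p = 0.0155), and Csf1, the macrophage growth factor, at 174, 419.9 and 181 CPM against 151, 283 and 123 CPM (0.39 ± 0.10, adjusted p = 0.0391). Each of the 3 was higher in every library, and none was called after thinning and gating (Kitl 0.34, adjusted p = 0.546). Il7, the T cell survival factor, was at 55.1, 85.9 and 59.2 CPM against 95.7, 98.1 and 76.1 CPM and fell (-0.51 ± 0.13, adjusted p = 0.0406), with a log2 value of 0.084 without the filter on contaminant genes. The Notch ligand Dll4 was called against barcodes with none of the 3 genes (1.20 ± 0.22, adjusted p = 0.00256) and not against all others (adjusted p = 0.379).

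Of 17 TNF family ligands, Tnfsf11 was left out as the gate gene, 6 others were tested, none rose and 2 fell, beside 3.39% of all genes tested (list median -0.24). Beside Tnfsf13b these were Tnfsf8, which encodes CD30 ligand, at 18.2, 28.0 and 12.5 CPM in the gate and 38.7, 65.9 and 21.7 CPM in the others (-1.18 ± 0.15, adjusted p = 0.000313). Tnfsf12, encoding TWEAK, was at 106, 78.1 and 123 CPM against 116, 70.4 and 125 CPM (adjusted p = 0.839). The receptor gene Tnfrsf11a (RANK) was at 0.397, 0.432 and 0 CPM in the gate, and Tnfrsf11b, the decoy receptor osteoprotegerin, had no UMI in any gate sum. Among enzymes able to shed membrane proteins, Adam10, Adam17 and Mmp14 averaged 53.7, 38.7 and 204 CPM in the gate and 49.7, 35.6 and 209 CPM in the others, and none of the 5 tested genes of this RANK list was called. Of 23 genes of lymphotoxin and NF-kB signalling 22 were tested, none rose and 2 fell, against 3.39% of all genes tested that fell. Of the oxysterol enzymes, 4 of 6 were tested and none was called (list median 0.32). Against barcodes with none of the 3 genes, Cyp27a1, a sterol 27-hydroxylase gene, rose together with Ch25h (0.92 ± 0.20, adjusted p = 0.00962). Cyp7b1, which turns 25-hydroxycholesterol into the EBI2 ligand, was at 19.0, 27.6 and 12.5 CPM in the gate and 16.0, 26.3 and 15.2 CPM in the others (adjusted p = 0.906).

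Ccl21a, a chemokine gene of the T cell zone and of lymphatic vessels, fell in the gate. It was at 2616, 3631 and 5455 CPM in the gate and 5370, 5102 and 6618 CPM in the others (-0.65 ± 0.11, adjusted p = 0.00277), lower in 3 of 3 libraries. Of 10 homeostatic chemokine genes 7 were tested, and Ccl21a was the 1 called, where 3.39% of all genes tested fell (list median -0.28). It was called after thinning and gating as well (-0.91, adjusted p = 0.000379). Counts of Ccl21a and Ccl19 were each summed over 2 gene identifiers with the same symbol, and reads of near-identical Ccl21 copies may be split. Ccl19 was at 1398, 1538 and 2073 CPM against 1888, 1369 and 2332 CPM (adjusted p = 0.365). It was called lower against all others after thinning and gating (-0.76, adjusted p = 4.55e-05) and without 2-IC replicate 2 (-0.36, adjusted p = 0.0349), and against barcodes with none of the 3 genes (-0.45 ± 0.09, adjusted p = 0.00564), where Cxcl12 fell too (-0.32 ± 0.07, adjusted p = 0.0122). Of 16 inflammatory chemokines and cytokines 14 were tested, 1 rose and 3 fell, beside 1.50% and 3.39% of all genes tested (list median -0.27). Ccl9 rose, at 219, 146 and 115 CPM against 111, 71.6 and 36.2 CPM (1.05 ± 0.11, adjusted p = 0.000103). The monocyte chemoattractant gene Ccl7, at 156, 246 and 51.4 CPM against 341, 346 and 206 CPM (-1.03 ± 0.17, adjusted p = 0.00237), and the neutrophil chemoattractant gene Cxcl1, at 851, 858 and 556 CPM against 1361, 1106 and 658 CPM (-0.49 ± 0.09, adjusted p = 0.00383), were lower in every library and after thinning and gating (Cxcl1 -1.03, adjusted p = 3.21e-05).

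**Figure D4:**
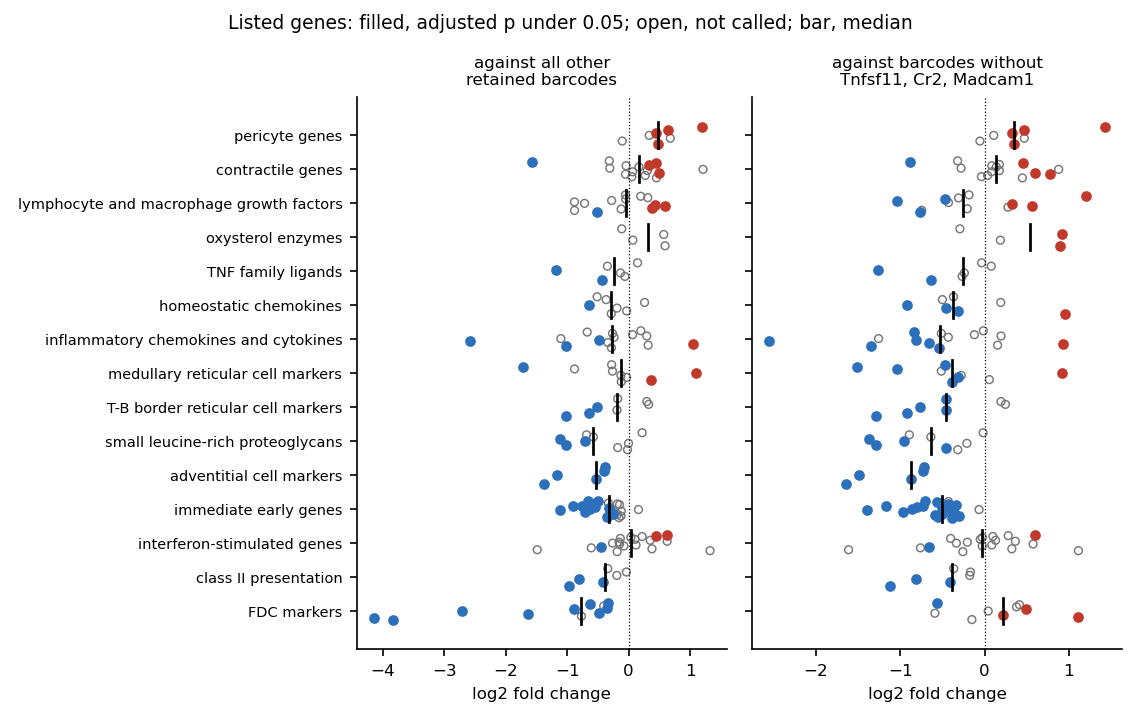
Log2 fold change (x axes) of the tested members of 15 gene lists (rows) for the gate against all other retained barcodes (left) and barcodes without Tnfsf11, Cr2 and Madcam1 (right); filled points had an adjusted p under 0.05 and black bars are list medians. Pericyte genes lie mostly above 0, while adventitial and immediate early genes lie mostly below 0 in both.

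Markers of adventitial cells, the fibroblasts around large vessels and in the capsule, were lower. Of 8 listed genes 5 were tested and all 5 fell, beside 3.39% of all genes tested (list median -0.54, all genes 0.015). Against barcodes with none of the 3 genes, where 3.51% of all genes fell, the list median was -0.87 and that of all genes 0.0056. Dpt, which encodes dermatopontin, was at 282, 271 and 199 CPM in the gate and 559, 679.8 and 396 CPM in the others (-1.16 ± 0.09, adjusted p = 5.39e-06), without overlap, and -1.35, adjusted p = 7.86e-06 after thinning and gating. Gsn, which encodes gelsolin, was at 3303, 2115 and 2101 CPM against 4571, 2668 and 2396 CPM (-0.38 ± 0.06, adjusted p = 0.00348), and Clec3b, which encodes tetranectin, also fell (-0.40, adjusted p = 0.0153). Cd34 and Ly6a, named after their values were seen, completed the 5. Of 9 small leucine-rich proteoglycans, which bind collagen, all 9 were tested and 3 fell, beside 3.39% of all genes tested (list median -0.57). These were Fmod (-1.02), Ogn (-0.71) and Prelp (-1.12), named after their values were seen. The most abundant, Dcn, was at 7923, 9891 and 6290 CPM against 9056, 8080 and 6400 CPM (adjusted p = 0.957). Of 15 collagens tested 1 rose and 2 fell, beside 1.50% and 3.39% of all genes tested (list median 0.05). Col14a1, named after its values were seen, was 1 of those that fell (-1.73 ± 0.26, adjusted p = 0.00145).

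Several immediate early genes, which respond within minutes to stimuli including tissue digestion, were lower in the gate than in all other retained barcodes. Of 23 genes 22 were tested, none rose and 12 fell, beside 3.39% of all genes tested (list median -0.33 against 0.015 for all genes). Against barcodes with none of the 3 genes 18 of 22 tested fell, beside 3.51% of all genes (list median -0.51, all genes 0.0056). The direction was the opposite in the smaller comparisons. Against the Madcam1 gate 5 of 20 tested were higher and 1 lower, beside 2.19% and 2.55% of all genes (list median 0.36). Against the Cr2 gate 12 of 21 were higher and 2 lower, beside 7.52% and 10.4% of all genes (list median 0.47). The most abundant, Fos, was at 6183, 5190 and 5724 CPM in the gate and 7092, 5139 and 6394 CPM in the others and was not called (adjusted p = 0.179). Klf4, named after its values were seen, was at 464, 419.9 and 288 CPM against 857, 759 and 520.1 CPM (-0.91 ± 0.07, adjusted p = 8.25e-06) and was called after thinning and gating (-0.72, adjusted p = 0.000596). Egr1 (-0.25 ± 0.06, adjusted p = 0.0212), Fosb (-0.35 ± 0.06, adjusted p = 0.00433) and Junb (-0.33 ± 0.06, adjusted p = 0.00767) fell less and were named after their values were seen. After thinning and gating none of these 3 was called, at log2 values of -0.22, -0.26 and -0.28, and without the filter on contaminant genes Egr1 was at 0.12 and Fosb at 0.061. The median share of mitochondrial UMIs was 2.85%, 2.91% and 1.60% in the gate and 2.75%, 2.75% and 1.31% in the others.

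FDC genes fell in the gate when, by the rule, Cr2 barcodes stood on the other side. Of 12 listed FDC markers 11 were tested and 9 fell, beside 3.39% of all genes tested. Against barcodes with none of the 3 genes the direction of several turned. There 3 of 9 tested were higher and 1 lower, beside 1.79% and 3.51% of all genes tested. Clu (-0.48 against all others, and 0.22 ± 0.06, adjusted p = 0.0321 against barcodes with none), Mfge8 (-0.35 and 0.49 ± 0.07, adjusted p = 0.000342) and Coch (-1.64 and 1.11 ± 0.28, adjusted p = 0.0253) were the 3, Coch being named after its values were seen. After thinning and gating, none of the 3 was called against all others (Clu -0.16, adjusted p = 0.655, Mfge8 -0.0067, adjusted p = 0.997 and Coch -1.85, adjusted p = 0.0508). Clusterin, encoded by Clu, is a secreted chaperone, and Mfge8 bridges apoptotic cells to phagocytes. By the rule used for the largest rises, the 10 genes with the largest fall against all others were A230065H16Rik, Gm42031, Fabp5, Serpina1e, Spint2, Syt1, Gm43305, Cilp, Cd200 and Il4i1. Cilp, a cartilage matrix protein gene, was at 12.7, 8.63 and 18.7 CPM in the gate and 98.1, 65.3 and 125 CPM in the others (-2.94 ± 0.15, adjusted p = 1.63e-07). Of the 7 that could be tested against barcodes with none of the 3 genes, Cilp (-1.27 ± 0.20, adjusted p = 0.000896), Spint2, a protease inhibitor gene (-1.70 ± 0.32, adjusted p = 0.0033), and Fabp5 were called. The fatty acid binding protein gene Fabp5 (-4.92 ± 0.20, adjusted p = 5.01e-08 against all others) also fell against barcodes with none of the genes (-2.50 ± 0.34, adjusted p = 0.000233), while Serpina1e, of a family of near-identical genes, did not pass there (adjusted p = 0.478). Of 22 interferon-stimulated genes 19 were tested, 2 rose and 1 fell, beside 1.50% and 3.39% of all genes tested (list median 0.036). Usp18, which damps interferon signalling, was at 159.8, 113 and 195 CPM in the gate and 113, 71.0 and 101 CPM in the others (0.62 ± 0.10, adjusted p = 0.00288), and Ifi47 and Irf1, named after their values were seen, were the others.

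The class II genes H2-Aa, H2-Ab1 and H2-Eb1 were lower in the gate than in all others, 3 of 6 tested beside 3.39% of all genes, with H2-Ab1 at 198, 102 and 114 CPM against 239, 123 and 192 CPM (-0.42 ± 0.10, adjusted p = 0.0314) and H2-Eb1 at 105, 31.5 and 42.1 CPM against 143, 56.7 and 131 CPM (-0.81 ± 0.15, adjusted p = 0.00661). After thinning and gating H2-Aa was called (-1.13, adjusted p = 0.0173), and H2-Ab1 (-0.41, adjusted p = 0.52) and H2-Eb1 (-0.62, adjusted p = 0.357) were not. Markers of other cell types were present in both sets. The 14 macrophage and dendritic cell markers in the files summed to 330.4, 83.3 and 310.1 CPM in the gate and 308, 119 and 532 CPM in the others. Of 7 tested, Cd52 was lower in the gate (-1.20 ± 0.23, adjusted p = 0.0064) and none was higher. Their most abundant member in the gate was Aif1 (155, 51.3 and 237 CPM), while Itgax, Mrc1, Siglec1 and Flt3 were at 0 in the gate of 2-IC replicate 2 and 1-IC. The 13 B cell markers summed to 1617, 857 and 669 CPM against 1530, 1158 and 578 CPM, led by Ebf1, which stroma also expresses, and Ighm, named after its values were seen as was H2-Aa, was the 1 called of 6 tested, lower in the gate (-0.74 ± 0.14, adjusted p = 0.00694). The 12 T cell markers summed to 24.6, 7.77 and 20.3 CPM in the gate and 29.7, 13.1 and 29.7 CPM in the others, with Cd3e at 0 in the gate of all 3 libraries. Without Ccl21a, 10 endothelial markers in the sums reached 109, 88.5 and 99.7 CPM against 125, 102 and 98.5 CPM, most of it Plvap. Of the epithelial and nerve sheath markers, Ngfr, which encodes a nerve growth factor receptor and is also found on reticular cells, was the most abundant. It was at 169, 185 and 104 CPM in the gate and 104, 125 and 77.5 CPM in the others and rose in 3 of 3 libraries (0.55 ± 0.09, adjusted p = 0.00268), also against barcodes with none of the 3 genes (0.48 ± 0.09, adjusted p = 0.00389). Its call against all others was lost after thinning and gating (0.55, adjusted p = 0.167) and without 2-IC replicate 1 (0.46, adjusted p = 0.144). Epcam, an epithelial marker, was at 0.397, 0 and 0 CPM in the gate and 9.11, 9.55 and 35.5 CPM in the others and fell (adjusted p = 7.85e-05). The part of this RNA in the results was not tested.

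Scrublet called 6 of 376, 12 of 135 and 7 of 82 gate barcodes doublets (1.60%, 8.89% and 8.54%) against 0.348%, 2.34% and 3.69% of the other retained barcodes. Replicates 1 and 2 of 2-IC shared 76 barcode sequences, with a median UMI ratio of 52.5 between the libraries, replicate 1 and 1-IC shared 2, and 7 shared barcodes were in the gate, all in 2-IC replicate 2. Leaving out doublets or shared barcodes kept each count of called genes within 1.5 times its value.

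Of the genes named here and tested against all other retained barcodes, 27 lost their call without 2-IC replicate 1, 13 without 2-IC replicate 2 and none without 1-IC. Both sets included Tnfsf13b, Csf1, Flt3l, Des, H2-Ab1, Inmt, Pdgfrb, Cox4i2, Synpo2, Egr1 and Irf1. Without 2-IC replicate 1 the calls of Cxcl1, Il7, Kitl, Mylk, Abcc9, Gsn, Clec3b, Tuba8, Ccl7, Junb, Fosb, Ly6a, Ifi47, Fmod, Ighm and Ngfr were lost as well, and without 2-IC replicate 2 those of H2-Eb1 and Col14a1. The log2 fold change stayed within 1.5 times its value in 25 of the 27 (all but Il7, -0.30, and Ifi47, 0.27) and in all 13. Hamp2, Stc1 and Enpp2 were called without each library in turn. That no call was lost without 1-IC is not a sign of robustness. In that edgeR fit the adjusted p of Hamp2 was 5.09e-57 at an SE of 0.12, against 1.19e-05 at an SE of 0.13 without 2-IC replicate 2. Calls made without 1-IC alone are therefore weak. After thinning and gating, the calls of Sdpr, Tuba8, Tnfsf8, Il7, Usp18, Ifi47, Irf1, Synpo2, Pdlim3, Prelp, Ly6a, Ighm and Fbn2 (named below, 0.80, adjusted p = 0.182) were lost, beside those given above. Of 34 calls lost in this way, 21 kept a log2 fold change within 1.5 times its value (Tnfsf8 at -1.52, Prelp at -1.13, Pdlim3 at -1.33, Sdpr at 0.89 and Tuba8 at 0.88 among them), 12 were smaller or of opposite sign and 1 was larger.

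Against the Madcam1 gate, the nearest other Tnfsf11-bearing stroma, 292 of 6163 genes passed the test (4.74%), 135 higher in the Tnfsf11 gate (2.19%) and 157 lower (2.55%). The Madcam1 gate was small, with 50, 16 and 17 barcodes and 315165, 254152 and 107914 UMIs. Saa3, Fst, Inmt, Rgs16 and Cxcl9 were the 5 genes with the largest rise. Inmt was at 561, 734 and 348 CPM in the Tnfsf11 gate and 124, 11.8 and 18.5 CPM in the Madcam1 gate (log2 fold change 3.34 ± 0.35, adjusted p = 1.62e-06), with no overlap. Cxcl9, an interferon-induced T cell chemoattractant gene, was at 148, 234 and 360.0 CPM against 31.7, 15.7 and 92.7 CPM (2.59 ± 0.29, adjusted p = 2.13e-06). Saa3, an acute-phase protein gene, was at 379, 18.6 and 184 CPM against 34.9, 0 and 0 CPM (3.81 ± 0.38, adjusted p = 7.64e-07), with large differences between libraries of the Tnfsf11 gate itself, and was at 2.14 with adjusted p = 0.0504 after thinning and gating. Rgs16 was at 85.3, 89.3 and 35.8 CPM against 22.2, 3.93 and 0 CPM, and Fst, which encodes follistatin, rested on 2-IC replicate 2, where it was at 175 CPM in the Tnfsf11 gate and 3.93 CPM in the Madcam1 gate. Without that library the log2 fold change of Fst was 1.75 and its call was lost, and Cxcl9 was at -0.033 after thinning and gating. The matrix gene Dcn (1.44 ± 0.20, adjusted p = 3.11e-05) and the chemokine gene Cxcl12 (1.29 ± 0.17, adjusted p = 2.47e-05) were higher in the Tnfsf11 gate as well.

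Fabp5, Tcerg1l, Serpina1e, Lrat and Il2rg were the 5 genes with the largest fall. Lrat, the retinol esterifying enzyme gene, was at 5.55, 0.863 and 4.68 CPM in the Tnfsf11 gate and 53.9, 66.9 and 64.9 CPM in the Madcam1 gate (-4.09 ± 0.51, adjusted p = 9.11e-06). Il2rg, the common cytokine receptor chain gene, was at 2.38, 5.18 and 7.79 CPM against 47.6, 86.6 and 64.9 CPM (-3.92 ± 0.43, adjusted p = 2.13e-06), and in the Cr2 gate at 82.8, 60.0 and 71.6 CPM. The marker genes Ch25h (-1.37 ± 0.26, adjusted p = 0.00156), Cxcl13 (-1.29 ± 0.18, adjusted p = 5.12e-05) and Bst1 (-1.44 ± 0.20, adjusted p = 3.77e-05) were higher in the Madcam1 gate than in the Tnfsf11 gate in each library. Ch25h was at 121, 102 and 83.4 CPM there, above each value of the Tnfsf11 gate. Enpp2 was at 5597, 5170 and 4198 CPM in the Madcam1 gate (adjusted p = 0.567), and none of 5 pericyte genes tested was called. All 4 adventitial markers tested were higher in the Tnfsf11 gate than in the Madcam1 gate, beside 2.19% of all genes (list median 1.49, all genes 0.0072).

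Against the Cr2 gate, which holds the FDCs, 1405 of 7849 genes passed the test (17.9%), 590 higher in the Tnfsf11 gate (7.52%) and 815 lower (10.4%). Of 13 collagens tested, 11 were higher and 1 lower (list median 1.60, all genes 0.011), of 10 complement genes 7 were higher and 2 lower, and of 11 FDC markers 10 were lower and 1 higher (list median -2.52). By the same rule, Apol11b, Hamp2, Rasl11a, Pltp and Fbn2 were the 5 genes with the largest rise. Hamp2 was at 46.1, 12.0 and 9.34 CPM and Pltp at 89.9, 88.7 and 12.5 CPM in the Cr2 gate (2.83 ± 0.28, adjusted p = 1.42e-05 and 2.52 ± 0.34, adjusted p = 0.000191). Enpp2 was at 2410, 2003 and 1728 CPM in the Cr2 gate and rose in the Tnfsf11 gate (0.95 ± 0.11, adjusted p = 6.94e-05), whereas Cxcl13 was at 33037, 19945 and 53829 CPM and fell (-2.02 ± 0.09, adjusted p = 2.1e-08). Homer2, which encodes a scaffold protein, had 0 UMIs in all gate sums (5480510 UMIs) and 94 UMIs in the Cr2 gate (1583501 UMIs). Against a limit of 3 UMIs over the gate it was at least 108-fold lower there.

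The 1-IC condition has 1 library, so differences between 1-IC and 2-IC gates were described without a test. Of 3195 genes with at least 50 CPM in either gate sum, 94 (2.94%) were 2-fold or more apart between 1-IC and 2-IC replicate 1. Between 1-IC and 2-IC replicate 2 these were 484 of 3549 (13.6%), and between the 2-IC replicates 271 of 3511 (7.72%). The 2-IC replicates were thus further apart than 1-IC was from replicate 1. Of 3111 genes on which the 2-IC gates were within 2-fold, 9 were at least 2-fold higher and 40 at least 2-fold lower in 1-IC than in both. The 3 leading higher genes, Ifit3, Isg15 and Xaf1, are induced by interferon. Ifit3 was at 8.73, 6.47 and 82.6 CPM (22, 15 and 53 UMIs), Isg15 at 32.9, 17.7 and 159 CPM and Xaf1 at 24.2, 15.5 and 68.6 CPM in the gate. The other retained barcodes had 15.3, 6.26 and 22.5 CPM of Ifit3 and 43.8, 26.8 and 119.5 CPM of Isg15, so that Isg15 was high in the 1-IC library outside the gate too. The leading lower genes included Myc at 68.2, 64.3 and 12.5 CPM (172, 149 and 8 UMIs), S100a4 at 134, 74.7 and 21.8 CPM, Lpcat3 at 49.6, 53.5 and 15.6 CPM and Ccl7 at 156, 246 and 51.4 CPM. Outside the gate, S100a4 was at 147, 105 and 81.1 CPM and Ccl7 at 341, 346 and 206 CPM. Myc was at 83.5, 58.8 and 55.0 CPM and Lpcat3 at 44.8, 42.1 and 36.9 CPM there. Each was lowest in 1-IC there too, but Myc only narrowly (55.0 against 58.8 CPM in 2-IC replicate 2), unlike in the gate (12.5 against 64.3 CPM). The 1-IC gate rested on 82 barcodes and 641663 UMIs, against 2521379 and 2317468 UMIs in the 2-IC gates.

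**Figure D5:**
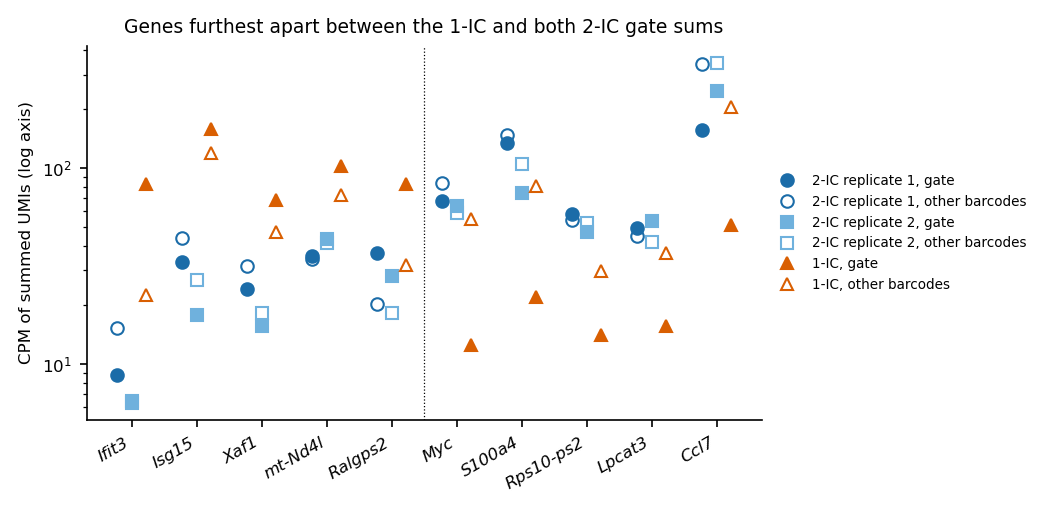
CPM of summed UMIs (y axis, log scale) in each library for 5 genes higher and 5 lower in the 1-IC gate than in both 2-IC gates, in the Tnfsf11 gate (filled) and in the other retained barcodes (open). Isg15 is also high in the open 1-IC point (119.5 CPM), and Myc is low in the filled 1-IC point alone (12.5 CPM).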

How the data were processed

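Single-cell 3' RNA libraries were made on the 10x platform. The authors deposited whole-number UMI counts per gene and barcode, made with Cell Ranger (5.0.0 per the file headers) on a GRCm38 genome; gene positions here are from GENCODE annotation of GRCm38. Counts of 98 symbols with several identifiers were summed, of 51912 genes. Retained barcodes were gated as described, UMIs were summed per library and set (at least 5 barcodes), and sums were compared with the edgeR quasi-likelihood test (4.0.16, R 4.3.3, TMM, filterByExpr, library as block, Benjamini-Hochberg adjusted p under 0.05). The 13 contaminant genes and the 3 gate genes were left out of tests. The sets of a library came from 1 suspension, and their deviations from the set means correlated in every library (r over genes 0.450, 0.693 and 0.457 against the other retained barcodes). Per the methods the 3 libraries are independent experiments on pooled lymph nodes, so p-values measure the spread between libraries and none between mice.

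Members and gene lists were chosen with earlier results of these data known. Named genes were the markers, the 3 most abundant members of each list (all members for the TNF, RANK, oxysterol, homeostatic chemokine and growth factor lists), the 10 largest called changes each way against other retained barcodes and the 5 each way against the Madcam1 and Cr2 gates (at least 50 mean CPM, same direction in all 3 libraries), the 10 most abundant genes, and up to 5 genes each way between 1-IC and both 2-IC libraries. Others were named after their values were seen. The text does not print every gene the rule picks, mostly genes not called, and 1 is not reported here. DESeq2 (1.42.0), thinning to 2000 UMIs, Scrublet in scanpy (1.11.5) and left-out libraries were alternatives. On simulated counts with 200 genes changed by 1 on the log2 scale, 72.5% were recovered against the other retained barcodes (11019 genes), 54.0% against the Madcam1 gate (6163) and 73.0% against the Cr2 gate (7849). The simulation used a fixed dispersion not estimated from these data and library effects shared by both sets, so these rates need not hold for the real sums.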

Additional observations from a re-analysis of the deposited data

Results flagged for a closer look

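Isg15, an interferon-induced gene, was lower in the Tnfsf11 gate than in the other retained barcodes of both 2-IC libraries (log2 ratio -0.41 and -0.60) and higher in that of the 1-IC library (0.41), and the difference between the conditions was not tested. With the 1-IC library left out, Isg15 was called lower in the gate of the 2-IC libraries (edgeR, log2 fold change -0.53, adjusted p = 0.0341). That fit called 814 genes, against 239 and 327 without 2-IC replicate 1 and 2-IC replicate 2, so the call is weak. Barcodes removed for UMIs of contaminant genes enter no comparison, and 11.8%, 18.1% and 6.38% of them met the 3 gene criteria of the gate (189 of 1607, 66 of 365 and 19 of 298 in 2-IC replicate 1, 2-IC replicate 2 and 1-IC).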

How the results depend on the processing

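Against the other retained barcodes, 539 genes were called as reported. The count was 232 with DESeq2, 889 with no filter on low counts, 32 with no replicate block, 112 after thinning and gating, 152 with thinned sums of the reported gate, 2433 with no filter on contaminant genes, and 239 to 814 with 1 library left out (239 without 2-IC replicate 1, 327 without 2-IC replicate 2 and 814 without 1-IC). Against the Madcam1 gate (292) the counts were 128 with DESeq2, 54 with no replicate block, 159 at 2 or more Tnfsf11 UMIs, 80 after thinning and gating, 123 with thinned sums, 550 with no contaminant filter and 179 to 249 with 1 library left out (179 without 2-IC replicate 2). Against the Cr2 gate (1405) they were 796 with DESeq2, 652 with no replicate block, 370 after thinning and gating, 521 with thinned sums, 3634 with no contaminant filter and 899 to 1106 with 1 library left out (899 without 2-IC replicate 1). The cause was not tested, beyond the fewer UMIs or libraries that thinning and leaving out leave. The share in the gate (2-IC replicate 1, 2-IC replicate 2 and 1-IC) was 14.7%, 13.6% and 15.5% after thinning, 18.0%, 26.6% and 16.2% with no contaminant filter, and 12.1%, 22.0% and 11.3% at 2 or more UMIs. Genes 2-fold apart between libraries numbered 19 (1-IC and 2-IC replicate 1), 113 (1-IC and 2-IC replicate 2) and 58 (both 2-IC) at 200 CPM, and 449, 1031 and 553 with thinned sums. With no contaminant filter, log2 fold changes of opposite sign were 0.082 for Tnfsf13b, 0.31 for Tnfsf12, 0.33 for Mmp14, 0.41 for Cxcl12, 0.084 for Il7, 0.38 for Rgs5, 0.43 for Thbs1, 0.33 for Dcn, 0.39 for Myh11, 0.12 for Egr1 and 0.061 for Fosb against the other retained barcodes (Tnfsf12, Mmp14, Cxcl12, Rgs5, Thbs1, Dcn and Myh11 were called higher there), -0.67 for Plvap and -0.045 for S100a4 against the Madcam1 gate, and 0.080 for Tnfsf8, 0.18 for Rgs5, -0.31 for Ebf1 and -0.22 for Ly6a against the Cr2 gate. Against barcodes without Tnfsf11, Cr2 and Madcam1 the sign turned for Cxcl13 (0.95), Clu (0.22), Mfge8 (0.49), Myh11 (0.78) and Coch (1.11), by the other choice of barcodes. After thinning and gating, the sign of a gene called under either setting turned for Inmt (-0.012), and against the Madcam1 gate for Ccl21a (1.00) and Cxcl9 (-0.033). Cxcl13 (0.18), Bst1 (0.017), Adam17 (-0.21) and Myh11 (0.35) were among genes whose sign turned against the other retained barcodes with no call under either.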
